A study of Mus musculus with 9 samples.

Results

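The genes described here encode the transcription factors of the activator protein 1 (AP-1) group and their close partners, measured in SVR cells, a mouse angiosarcoma line, after treatment with the beta-adrenergic receptor blocker propranolol. A probe was taken where its gene symbol in the platform annotation was Fos, Fosb, Fosl1, Fosl2, Jun, Junb, Jund, Atf3, Maff or Mafk. Of these 10 genes, 9 had a probe and together they had 10 probes of the 25697 on the array, Maff having 2. No probe carried the symbol Fosl2, so Fosl2 was not analysed here. The groups were sham at 0 h and propranolol at 50 µM for 4 h and for 24 h, with 3 bead arrays each and 9 in all. The labels place sham at 0 h, whereas the study's methods describe a higher dose and the same duration for sham and treated cells, so the labels' values are used, and under these labels the treatment and the time in culture cannot be told apart. All groups were the 1 cell line, an endothelial line of pancreatic islet vessels transformed with SV40 large T antigen and activated H-ras, the last of which itself signals to AP-1. RNA was pooled over biological replicates before labelling, so the replicate error here is that of arrays and may be technical, and the p-values speak for these arrays alone.

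AP-1 is not one protein but a set of dimers of FOS, JUN, ATF and MAF family proteins, which share a basic region that grips DNA and a leucine zipper that holds the pair together. FOS proteins need a partner from another family, most often a JUN protein, to bind DNA, JUN proteins can also pair with themselves, and ATF3 and the small MAF proteins widen the choice of partner and of DNA site. Many of these genes are immediate early genes, transcribed within minutes of a growth factor, cytokine or stress signal and then shut off, and in endothelial cells and vascular tumours they are known for their part in growth, inflammation, migration and the stress response.

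After 24 h of propranolol, Atf3, Fos, Junb, Jund, Fosb and Jun were higher than in sham cells and Fosl1 was lower, while after 4 h none of these genes had passed both the test and a 1.5-fold change. Atf3 had the largest change of the group, 6.50-fold over sham on the background-corrected scale. Change was tested with limma on log2 signals after background correction and quantile normalization (neqc), and a gene was called where its p-value, adjusted by Benjamini-Hochberg over all 11653 tested probes, was under 0.05 and its change at least 1.5-fold. Signals were detected, that is brighter than nearly all negative control probes (detection p under 0.05), on all 9 arrays for the 8 genes tested, so none of the 8 entered the test through 1 group alone. Mafk was detected on 0 of 9 arrays and was not tested.

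Of the 8 genes, 6 were called higher at 24 h than in sham, where 13.6% of all 7969 tested genes were called higher, and 1 was called lower, where 11.1% of all genes were. The share called higher stood above that of all genes, and the single lower call was near the background. The genes of this group and the gene lists below were chosen with earlier results of these data known. Their counts therefore carry no weight of their own and are given as a description. Arrays of the 24 h and sham groups did not overlap for 7 of the 8, against 66.4% of all tested genes. The median log2 fold change of the 8 genes was 1.15, beside -0.02 over all tested genes. At 4 h, 0 of the 8 were called against sham (1, Fosl1, at an unadjusted p under 0.05 in limma, and 0 by the methods' test), where 2.05% of all genes were called higher and 2.01% lower, and arrays did not overlap for 2 of the 8, against 42.2% of all genes. Between 24 h and 4 h, 6 were called higher and 0 lower, where 10.6% and 7.4% of all genes were called in those directions, and arrays did not overlap for 7 of the 8, against 62.6% of all genes. The 24 h group enters 2 of the 3 comparisons and sham 2 of them, so they are not independent. The share of all genes at an unadjusted p under 0.05 was not counted, for this group or for the lists below.

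**Figure D1:**
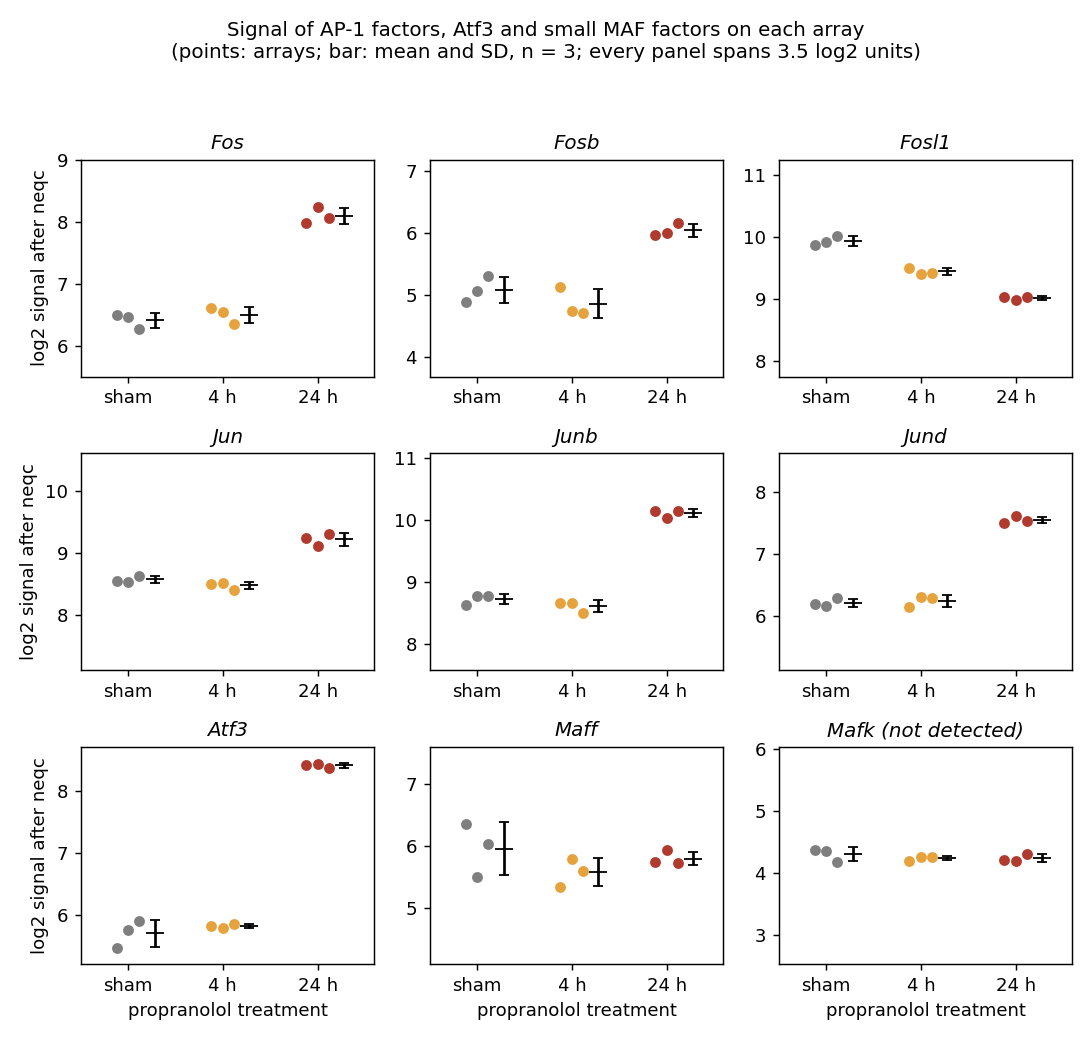
Background-corrected log2 signal (vertical axis) of 9 genes on each array, in sham, 4 h and 24 h groups. Points are arrays and bars are the mean with its SD (n = 3), and every panel spans the same range of log2 units. Atf3 lay between 8.37 and 8.44 at 24 h, against 5.47 to 5.90 in sham, Fosl1 stepped down through 4 h to 24 h, and Maff overlapped in all groups.

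Atf3 encodes a stress-induced factor that binds DNA with JUN partners or as a homodimer, where it is often a repressor. Its gene lies on chromosome 1 of the mouse genome (GRCm38.p6), at chr1:191170296-191183333. Deposited signals of its probe were 125, 112 and 141 on the sham arrays, 135, 119 and 127 on the 4 h arrays, and 437, 430 and 372 on the 24 h arrays. All 3 arrays at 24 h stood well apart from the rest, and the sham and 4 h arrays lay among each other. The log2 signal averaged 8.41 ± 0.04 at 24 h and 5.71 ± 0.22 in sham (SD, n = 3 each), a log2 fold change of 2.70 (standard error 0.10, 95% interval 2.48 to 2.92, adjusted p = 1.2e-08 from limma). This change ranked 30 of the 7969 tested genes in order of rise. At 4 h the log2 signal was 5.82 ± 0.03 (n = 3), and the log2 fold change over sham was 0.11 (95% interval -0.11 to 0.33, adjusted p = 0.46 from limma). At 24 h over 4 h the log2 fold change was 2.59 (adjusted p = 2.9e-08 from limma), so the rise lay between these times. The sham signals were dim, and the size of the change moved with the background correction: it was 2.70 after neqc, 1.83 in the authors' normalized table and 1.72 without background correction (3.30-fold). The direction and the call were the same in each of the 3.

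The start regions of 4 of the genes that were higher at 24 h are shown as context for the members described: Atf3 with the largest change, and Fos, Fosb and Junb, whose windows hold the same short element. No test links these windows to the expression changes. Each is the RefSeq window (GRCm38.p6) from 250 bases before to 50 after the gene's start, written in the direction of transcription. Capitals mark matches to TGACG, the core of the cAMP response element, on either strand, and in Atf3 also TTGCATCA, a composite site of C/EBP and ATF factors.
Atf3, chr1:191183284-191183583, minus strand: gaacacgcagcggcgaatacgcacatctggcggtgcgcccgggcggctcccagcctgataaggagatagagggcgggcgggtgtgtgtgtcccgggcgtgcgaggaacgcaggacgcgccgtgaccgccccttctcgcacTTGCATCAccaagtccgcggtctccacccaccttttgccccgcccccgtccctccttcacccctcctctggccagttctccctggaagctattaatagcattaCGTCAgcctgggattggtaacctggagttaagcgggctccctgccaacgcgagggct
Fos, chr12:85473640-85473939, plus strand: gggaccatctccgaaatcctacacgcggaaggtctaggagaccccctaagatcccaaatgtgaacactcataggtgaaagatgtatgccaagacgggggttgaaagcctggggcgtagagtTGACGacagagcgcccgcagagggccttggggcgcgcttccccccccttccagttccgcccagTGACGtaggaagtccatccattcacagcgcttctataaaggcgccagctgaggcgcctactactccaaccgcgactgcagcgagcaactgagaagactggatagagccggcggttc
Fosb, chr7:19309996-19310295, minus strand: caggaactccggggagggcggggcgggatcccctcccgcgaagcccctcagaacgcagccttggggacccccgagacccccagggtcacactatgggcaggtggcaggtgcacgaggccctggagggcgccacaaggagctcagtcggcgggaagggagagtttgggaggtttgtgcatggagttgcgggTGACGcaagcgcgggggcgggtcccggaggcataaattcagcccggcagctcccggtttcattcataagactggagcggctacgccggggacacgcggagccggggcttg
Junb, chr8:84978699-84978998, minus strand: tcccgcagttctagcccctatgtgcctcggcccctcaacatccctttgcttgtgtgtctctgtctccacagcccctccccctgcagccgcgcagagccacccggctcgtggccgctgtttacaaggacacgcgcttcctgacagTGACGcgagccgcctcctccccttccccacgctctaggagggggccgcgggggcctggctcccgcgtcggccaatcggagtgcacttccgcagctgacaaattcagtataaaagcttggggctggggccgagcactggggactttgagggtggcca
Counted from the start, with no base 0, the Atf3 window held TTGCATCA from -110 to -103 and TGACG, on the reverse strand, from -7 to -3. Fos held TGACG from -129 to -125 and from -66 to -62, Fosb from -60 to -56, and Junb from -106 to -102. TGACG was found on either strand in 20.8% of all 32851 windows of this length, TTGCATCA in 0.895%, the full cAMP response element TGACGTCA in 1.79%, the AP-1 site TGANTCA in 7.81%, the antioxidant response core TGACNNNGC in 12.4% and the CArG box bound by SRF in 1.63%. TGACG is part of TGACGTCA, so the matches of both overlap, and TGACG was added to the search after the windows had been seen. Windows were found for 9 of the 10 genes, 11 windows in all, and TGACG was in 7 of the 11. These belonged to 6 genes, namely those shown, Maff, which was not called, and Mafk, which was not detected. The windows of Jun and Jund, which were higher at 24 h, and of Fosl2 held none of these motifs, and the AP-1 site and the CArG box were in 0 of the 9. A match is an exact string of letters in this window only. Variants of these sites, such as TGACATCA in the Jun window, and sites outside the window were not counted.

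Among the genes of the FOS proteins, whose main partners are the JUN proteins, Fos and Fosb were higher at 24 h and Fosl1 was lower. The arrays read transcripts, and no protein was measured on them. Fos, the founding member of the family, had deposited signals of 174, 140 and 160 on the sham arrays, 178, 153 and 149 on the 4 h arrays, and 343, 388 and 317 on the 24 h arrays. The 24 h arrays all lay above the others and the sham and 4 h arrays overlapped. Its log2 fold change was 1.69 at 24 h over sham (standard error 0.10, 95% interval 1.47 to 1.90, adjusted p = 2.6e-07 from limma), 3.22-fold, and 0.09 at 4 h over sham (95% interval -0.13 to 0.30, adjusted p = 0.56). Without background correction the 24 h change was 1.14 on the log2 scale, or 2.20-fold.

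Fosb, which also gives rise to the long-lived splice form known as deltaFosB in brain, was the dimmest of the genes called. Deposited signals were 109, 96.0 and 119 on the sham arrays, 112, 94.7 and 97.7 on the 4 h arrays, and 141, 140 and 137 on the 24 h arrays. The 3 arrays at 24 h were above all the others but by a small step, and the detection p-values reached 0.018 in sham and 0.044 at 4 h. The log2 fold change was 0.95 at 24 h over sham (standard error 0.13, 95% interval 0.66 to 1.25, adjusted p = 1.1e-04 from limma) and -0.22 at 4 h over sham (95% interval -0.51 to 0.07, adjusted p = 0.26). Without background correction the 24 h change was 0.38, or 1.30-fold, and in the authors' normalized table it was 0.49, both short of 1.5-fold. Whether the probe separates the splice forms was not checked.

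Fosl1 encodes FRA-1, a FOS protein that lacks the strong activation domain of FOS, and is raised by RAS and ERK signalling in many transformed cells. It moved against the rest. Deposited signals were 1130, 931 and 1270 on the sham arrays, 853, 690 and 728 on the 4 h arrays, and 620, 585 and 539 on the 24 h arrays. The 3 groups did not overlap, and the levels stood in the order sham, 4 h, 24 h. The log2 signal averaged 9.93 ± 0.07 in sham, 9.44 ± 0.05 at 4 h and 9.01 ± 0.03 at 24 h (SD, n = 3 each). At 24 h Fosl1 was 1.89-fold lower than in sham, a log2 fold change of -0.92 (standard error 0.06, 95% interval -1.06 to -0.77, adjusted p = 9.0e-07 from limma). It was the single gene of the 8 with an adjusted p under 0.05 at 4 h, where it was 1.41-fold lower than in sham (log2 fold change -0.49, 95% interval -0.64 to -0.35, adjusted p = 4.9e-04 from limma), which is short of 1.5-fold. The step between 24 h and 4 h was also short of 1.5-fold, at -0.42 (adjusted p = 2.9e-04 from limma). The 24 h change was little altered without background correction, at -0.83, or in the authors' normalized table, at -0.80.

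Transcripts of the JUN genes, which encode the usual partners of FOS, were all higher at 24 h. Junb, which is held to be a weaker activator than JUN and can oppose it, had deposited signals of 509, 450 and 568 on the sham arrays, 515, 445 and 419 on the 4 h arrays, and 1210, 1100 and 1050 on the 24 h arrays. The 24 h arrays stood clear of the rest, with no overlap. The log2 fold change was 1.38 at 24 h over sham (standard error 0.07, 95% interval 1.22 to 1.55, adjusted p = 1.5e-07 from limma), 2.61-fold, and -0.11 at 4 h over sham (95% interval -0.28 to 0.05, adjusted p = 0.30). Junb was bright enough that the correction mattered little, with 1.24 without background correction and 1.26 in the authors' normalized table.

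Jund, whose product is usually present in resting cells and restrains growth in several settings, had deposited signals of 154, 126 and 160 on the sham arrays, 150, 140 and 146 on the 4 h arrays, and 266, 277 and 242 on the 24 h arrays. The 24 h arrays lay above all others. Its log2 fold change was 1.34 at 24 h over sham (standard error 0.07, adjusted p = 1.4e-07 from limma), 2.52-fold, and 0.03 at 4 h over sham (95% interval -0.13 to 0.19, adjusted p = 0.78). Without background correction it was 1.77-fold higher at 24 h.

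Jun, the partner that gives AP-1 much of its activating strength, had the smallest fitted change of the 6 that were higher. Deposited signals were 480, 384 and 517 on the sham arrays, 463, 404 and 396 on the 4 h arrays, and 701, 630 and 630 on the 24 h arrays. All 24 h arrays were above the others, while sham and 4 h arrays overlapped in the deposited signals. After neqc the 4 h arrays were just below the sham arrays, at a log2 fold change of -0.10 (95% interval -0.26 to 0.06, adjusted p = 0.38 from limma). At 24 h the log2 fold change over sham was 0.65 (standard error 0.07, 95% interval 0.49 to 0.81, adjusted p = 2.6e-05 from limma), 1.56-fold, which fell to 1.47-fold without background correction and so below 1.5-fold. Whether the change in Jun was smaller than that in Junb was not tested.

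**Figure D2:**
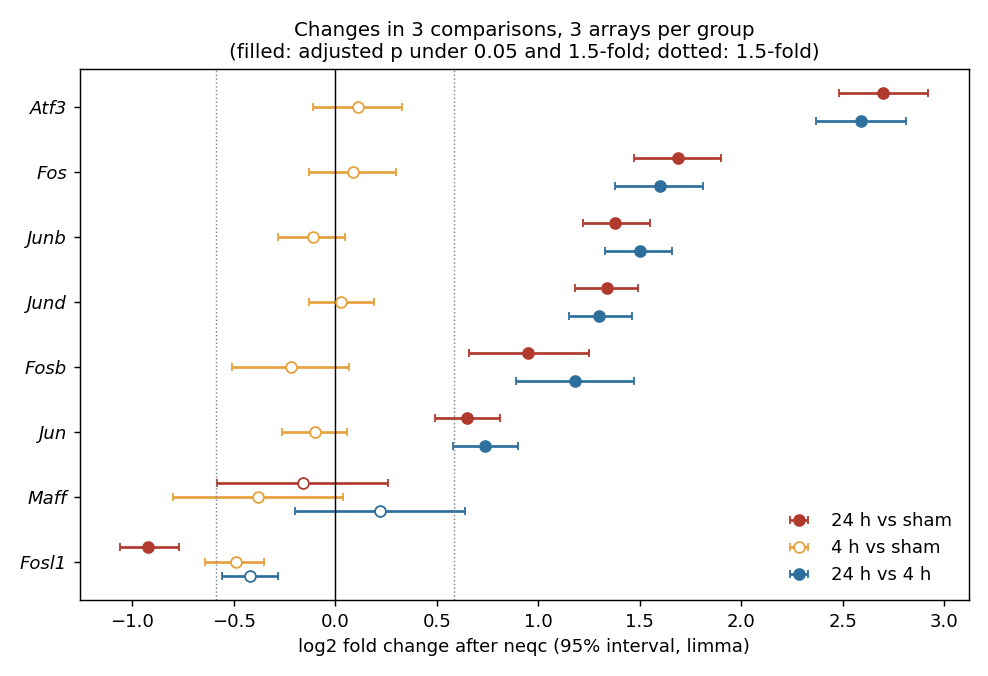
Log2 fold change after neqc with its 95% interval (horizontal axis) of the 8 tested genes at 24 h over sham, 4 h over sham and 24 h over 4 h, 3 arrays per group. Filled points passed an adjusted p under 0.05 and 1.5-fold (dotted lines), and the 4 h points lie between -0.49 for Fosl1 and 0.11 for Atf3 with all of them open.

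The small MAF proteins lack an activation domain and pair with one another, with FOS or with the NRF and BACH proteins. Of their genes, Maff gave no called change and Mafk no detected signal. The brighter Maff probe had deposited signals of 164, 105 and 147 on the sham arrays, 118, 119 and 118 on the 4 h arrays, and 130, 137 and 119 on the 24 h arrays. The sham arrays alone spanned the values of the other groups. The log2 fold change was -0.16 at 24 h over sham (standard error 0.19, 95% interval -0.58 to 0.26, adjusted p = 0.49 from limma) and -0.38 at 4 h over sham (95% interval -0.80 to 0.04, adjusted p = 0.17). Changes within these intervals are compatible with the 3 arrays per group, so the lack of a call does not show the lack of a change. Without sham replicate 2, the lowest sham array, the 4 h change of Maff was -0.61 (adjusted p = 0.019 from limma) and would be called. The second Maff probe, at 84.9 to 115 in sham, 89.7 to 94.6 at 4 h and 93.2 to 101 at 24 h, was detected on 5 of 9 arrays and was not tested. Mafk lay between 82.0 and 96.4 over all 9 arrays, with detection p-values of 0.25 to 0.96, within the range of the negative controls.

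With 3 arrays against 3, an exact two-sided permutation test cannot give a p below 0.10. It reached that value for the 7 genes whose 24 h and sham arrays did not overlap, and gave 0.60 for Maff. The smaller p-values above therefore rest on the assumptions of the limma fit, and a permutation of these arrays cannot give them. Member probes were read from 19 to 56 beads per array, with a standard error over beads of 1.86% to 6.06% of the signal. Array means of the deposited signal were 306.5 to 387.7 in sham, 326.6 to 373.2 at 4 h and 306.7 to 341.6 at 24 h, and 11454 to 12245 probes per array were detected. The number that opens each array label was read as its BeadChip (the glass slide that carries several arrays), which the labels do not name. By that number, 24 h replicate 3 stood apart from every other array of the series. Without it the log2 fold changes at 24 h over sham were 2.73 for Atf3, 1.71 for Fos, 1.37 for Junb, 1.35 for Jund, 0.90 for Fosb, 0.60 for Jun and -0.93 for Fosl1, with 7 genes called as before.

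**Figure D3:**
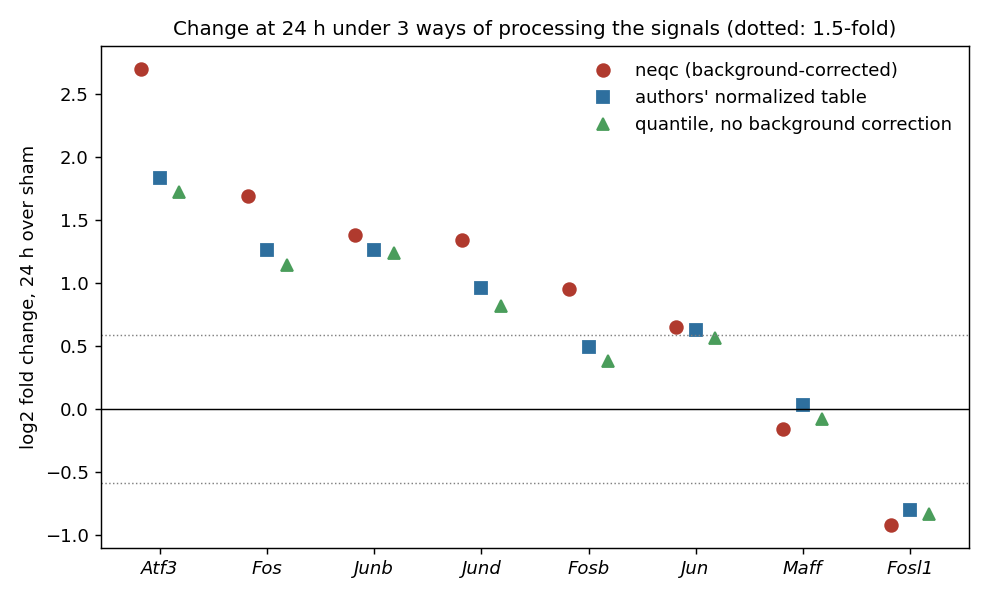
Log2 fold change at 24 h over sham (vertical axis) of the 8 tested genes after neqc, in the authors' normalized table and after quantile normalization with no background correction; dotted lines mark 1.5-fold. With no background correction, Atf3 stands at 1.72 and Fosb at 0.38, against 2.70 and 0.95 after neqc, while Junb (1.24) and Fosl1 (-0.83) moved little.

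Partners outside the 10 genes were read from a list of 18 further basic leucine zipper genes. Of the 9 that were tested, 4 were called higher at 24 h over sham and 0 lower, beside 13.6% and 11.1% of all genes. At 4 h 0 were called (5 at an unadjusted p under 0.05 in limma, a limit with no share of all genes counted, and 0 by the methods' test). Of all genes, 2.05% were called higher and 2.01% lower at 4 h. The median log2 fold change of the 9 was 0.57 at 24 h. Mafg, the third small MAF gene, had deposited signals of 993 to 1080 at 24 h, against 523 to 627 in sham, and rose by 1.04 on the log2 scale (adjusted p = 9.4e-07 from limma). The NRF-family factor Nfe2l1, which drives proteasome genes, rose by 0.95 (adjusted p = 6.5e-07), and Bach1, a repressor that pairs with small MAF proteins, by 1.10 (adjusted p = 8.1e-07; 0.71 without background correction). Crem, a cAMP-responsive factor, had 1.28 with its brightest probe (adjusted p = 8.0e-05 from limma), which was detected on 2 of 3 sham arrays, 0.48 without background correction, and 1.01 and 0.42 with its other probes. Nfe2l2, which encodes NRF2, a partner of small MAF proteins, was chosen after its values were seen and had 0.57 at 24 h over sham, short of 1.5-fold (adjusted p = 3.1e-04). The remaining tested genes of the list were not called at 24 h over sham either. Atf2 had 0.39, with 0.08 and 0.16 from its other probes, Creb1 0.37, Jdp2 0.22 and Batf3 -0.07.

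The ATF4 branch of the stress response is a known route to Atf3, and some genes listed for it were higher at 4 h. Of 12 tested genes, 7 were called higher at 24 h over sham and 6 at 4 h, beside 13.6% and 2.05% of all genes. At either time 0 were called lower, and the medians were 0.71 and 0.56. Ddit3, which encodes the stress factor CHOP, rose by 1.34 at 24 h and by 1.56 at 4 h over sham (adjusted p = 1.2e-07 and 7.3e-07 from limma). Its signals were 593 to 792 in sham, 1770 to 2100 at 4 h and 1400 to 1650 at 24 h, so the 24 h arrays lay below those at 4 h. Ddit4, an inhibitor of mTORC1, rose by 2.33 at 24 h and 1.58 at 4 h, and the stress-induced chromatin protein Nupr1 by 1.59 and 0.76. Ppp1r15a, which restores translation after stress, rose by 1.39 at 24 h (adjusted p = 9.4e-08) and had 0.37 at 4 h, short of 1.5-fold. Some genes of the list, chosen after their values were seen, were not called at 24 h or at 4 h over sham. Atf4 itself had 0.42 and 0.25, Atf5 0.12 and 0.26, Asns 0.29 and 0.12, and Vldlr 0.38 and 0.38. The other Asns probes gave -0.02 and 0.06 at 24 h. Atf3, over the same arrays, had 0.11 at 4 h, and a part of this branch in its change was not tested.

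Of 12 tested MAP kinase pathway genes, which encode kinases that signal to AP-1, 1 was called higher at 24 h over sham and 1 at 4 h, beside 13.6% and 2.05% of all genes, so the count does not set the kinases apart. These were the ERK-activated kinase Rps6ka3, at 0.60 (adjusted p = 4.0e-04 from limma; 0.33 without background correction, and not called without 24 h replicate 2 or sham replicate 3), and the p38 activator Map2k6, which had 0.71 at 4 h over sham (adjusted p = 7.5e-05; 0.43, short of 1.5-fold, without background correction) and -0.25 at 24 h over sham. Among SRF and its cofactors, 1 of 4 tested genes was called lower at 24 h and at 4 h, beside 11.1% and 2.01% of all genes. This was Srf, which binds the CArG box of Fos and other early genes. Its log2 fold changes over sham were -0.67 at 24 h and -0.61 at 4 h (adjusted p = 7.0e-05 and 8.6e-04 from limma). Neither was called without background correction (-0.54 at 24 h and -0.50 at 4 h) or in the authors' table, and among single arrays left out, the 24 h call was lost without 24 h replicate 3 and the 4 h call without 4 h replicate 1. The other Srf probe gave -0.62 at 24 h and -0.32 at 4 h, the latter short of 1.5-fold. Of 6 tested genes that degrade or modify AP-1 proteins, 0 were called in any comparison at this threshold by limma. Over all genes, 13.6% were called higher and 11.1% lower at 24 h over sham, 2.05% and 2.01% at 4 h, and 10.6% and 7.4% at 24 h over 4 h. The 24 h changes of the 6 lay between -0.30 for Det1 and 0.01 for Usp28. At an unadjusted p under 0.05 in limma, 1 of the 6 passed at 24 h over sham, 2 at 4 h over sham and 3 at 24 h over 4 h, and the methods' test called 0. With no share of all genes counted at that unadjusted limit, these counts do not set the 6 genes apart.

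Other immediate early genes did not move as 1 block. Of 11 tested, 6 were called higher and 2 lower at 24 h over sham, beside 13.6% and 11.1% of all genes. At 4 h, 1 was called higher and 3 lower, beside 2.05% and 2.01% of all genes. The 4 calls at 4 h became 1 without background correction, in the authors' table, with 75th percentile scaling or with a neqc offset of 50. Ier3, a survival gene, rose by 1.91 at 24 h (adjusted p = 3.1e-08 from limma), with signals of 7410 to 8760 at 24 h against 2030 to 3120 in sham, and had 0.22 at 4 h. Dusp1, a phosphatase that switches off MAP kinases and itself responds to AP-1, rose by 1.40 at 24 h (adjusted p = 5.2e-07) and had 0.23 at 4 h. Gadd45b, a stress sensor upstream of p38 and JNK, fell by 0.78 at 4 h over sham (adjusted p = 8.8e-05), which was -0.30 and short of 1.5-fold without background correction, and rose by 1.26 at 24 h over sham (adjusted p = 3.2e-07; 0.71 without background correction). Ccn1, a matrix protein under SRF and YAP control, was lower than in sham, with log2 fold changes of -1.54 at 24 h and -1.40 at 4 h (adjusted p = 1.2e-08 and 3.2e-07), and its other probes gave -0.93 and -1.35 at 24 h. The EGR genes, chosen after their values were seen, were short of 1.5-fold: Egr1 had -0.36 at 24 h over sham, Egr2 -0.45 and Egr3 -0.01.

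Genes known in other cells as AP-1 targets moved in both directions. Of 15 tested, 5 were called higher and 4 lower at 24 h over sham, beside 13.6% and 11.1% of all genes. Their median log2 fold change was 0.19 at 24 h. At 4 h, 1 was called higher and 2 lower, beside 2.05% and 2.01% of all genes. The chemokine Ccl2 rose by 1.58 at 24 h (adjusted p = 1.1e-06 from limma), or 0.66 without background correction, its signals being 154 to 181 at 24 h against 90.4 to 116 in sham. The metallothionein Mt1 rose by 0.98 at 24 h (adjusted p = 5.5e-07). It was the gene called higher at 4 h, at 0.82 over sham (adjusted p = 2.3e-05 from limma), and had 0.16 at 24 h over 4 h, not called. Dusp1, counted above, is also on this list. The matrix protease Mmp3 fell by 1.00 at 24 h (adjusted p = 3.3e-07), with -1.01 and -0.98 from its other probes, its signals being 208 to 245 at 24 h against 338 to 422 in sham.

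The line expressed endothelial markers, 7 of the 9 endothelial markers that had a probe being detected on all arrays and Kdr and Erg not. All 7 were called higher at 24 h over sham, beside 13.6% of all genes, by a median of 1.44 on the log2 scale. The summed signal of the list was 9530 to 13100 in sham, 9200 to 11000 at 4 h and 19800 to 23300 at 24 h. The 7 markers moved with the AP-1 genes called higher, and their part in those changes was not tested. Of 7 leukocyte markers with a probe, Cd14 alone was detected on all 9 arrays and was called higher at 24 h over sham (log2 fold change 0.65), while Ptprc, Itgam and Cd3e were not so detected, and the summed signal of the list was 604 to 703 in sham, 641 to 703 at 4 h and 659 to 696 at 24 h. Of 10 fibroblast and mural markers, Acta2 and Cspg4 alone were detected on all arrays of a group, while Acta2 was called lower at 24 h over sham, and the sums were 852 to 975 in sham, 881 to 975 at 4 h and 863 to 901 at 24 h. Of 5 epithelial markers with a probe, Krt18 and Krt19 were called lower at 24 h over sham, with log2 fold changes of -1.41 and -1.59. Krt8 had -0.19 and was not called. Cldn4, detected on all arrays at 24 h alone, went the other way, at 0.46 (adjusted p = 9.3e-04 from limma), short of 1.5-fold. Cdh1 was not detected on all arrays of any group. The sum was 929 to 1180 in sham, 767 to 818 at 4 h and 622 to 712 at 24 h. The part of these markers in the changes was not tested either. In RNA from whole cultures, fewer cells with a transcript and less transcript per cell cannot be told apart.

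Finally, genes outside the group were ranked by the likeness of their pattern over the 9 arrays, among 725 named genes whose group means ranged over at least 1 log2 unit. The measure was Pearson's r, given as a description, since the arrays form 3 groups and a high r mostly records the same steps between them. Atf3 was most like Plvap (r = 0.999), a protein of endothelial fenestrae, Hr (0.998) and the actin regulator Fhod1 (0.997). Junb was most like the semaphorin Sema3f (0.998), the endothelial receptor Notch4 (0.998) and Lims2 (0.996), and Jun like Cd55 (0.995), Lims2 (0.993) and Sema3f (0.988). Fos was most like Tmc8 (0.997), Hsd3b7 (0.995) and the fibronectin receptor subunit Itga5 (0.995), Jund like Gsta2 (0.998), Tnip1 (0.997) and Smox (0.997), and Fosb like Pcdh17 (0.990), Ehbp1l1 (0.987) and Alcam (0.985). Fosl1 was most like Cdca7 (0.995), a cell cycle gene, Kdm8 (0.994) and Ctps (0.993), a CTP synthase, which had log2 fold changes of -1.03, -1.25 and -1.19 at 24 h over sham and -0.56, -0.58 and -0.71 at 4 h over sham.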

How the data were processed

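RNA of SVR cells was pooled over biological replicates, amplified, biotin-labelled and hybridised by the authors to 1-colour Illumina mouse bead arrays, 3 per group. The deposited values used were the intensity of each probe without normalization, its standard error over beads, its bead count and its detection p-value, the last in 798 steps given by the negative controls. The authors' normalized intensity table, in which each array was multiplied by 1 constant (0.9104 to 1.151), was an alternative, and the series value table held the same values. Array depth is not defined, and precision is limited by the 9 arrays. Of 25697 probes, 23978 had 1 gene symbol in the platform annotation, 1719 had none and 0 had several, and 23962 symbols were updated by gene number to RefSeq (GRCm38.p6).

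Signals were background-corrected from the detection p-values, quantile normalized and log2-transformed by neqc (offset 16) in limma 3.58.1 with R 4.3.3. The test took probes whose detection p was under 0.05 on every array of 1 or more groups (11653, of which 662 had no name), in 1 fit of 3 groups with empirical Bayes moderation, and adjusted by Benjamini-Hochberg over all of them. Where a gene had several tested probes, the one with the highest mean signal stood for it. The fit was tested on simulated data with known changes. The study's methods name ANOVA and a 2-fold minimum, which were tried as alternatives. Up to 4 genes per list were named, those with the largest 24 h change among genes called at 24 h or 4 h, besides all 10 genes of the group and, for likeness, 3 genes per called gene. The genes and lists were chosen with earlier results of these data known. Promoter windows came from RefSeq and were searched on both strands, and figures were drawn with matplotlib 3.10.9.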

Additional observations from a re-analysis of the deposited data

Results flagged for a closer look

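The effect at 24 h and the effect at 4 h, both against sham, differed by limma (24 h over 4 h, adjusted p under 0.05 and at least 1.5-fold) in 6 of the AP-1 genes and in 13 of the 18 named genes around them, beside 10.6% of all tested genes called higher and 7.4% called lower. Those 18 were named for large changes at 24 h, so their count carries no weight of its own. The AP-1 genes were chosen with earlier results of these data known, so the same holds for their count. The differences on the log2 scale, 24 h minus 4 h, were 2.59 for Atf3, 1.60 for Fos, 1.5 for Junb, 1.30 for Jund, 1.18 for Fosb and 0.74 for Jun. Among partners they were 1.25 for Bach1, 1.02 for Crem, 0.90 for Mafg and 0.67 for Nfe2l1. In the ATF4 branch they were 1.02 for Ppp1r15a, 0.84 for Nupr1 and 0.75 for Ddit4. Early genes gave 2.04 for Gadd45b, which had opposite signs at the 2 times, 1.69 for Ier3 and 1.18 for Dusp1. Ccl2 gave 1.5. The difference was negative for Map2k6 (-0.96), called only at 4 h against sham, and for Mmp3 (-0.81). Fosl1, Maff and Ddit3 did not meet both limits in this comparison. Groups of 3 arrays were too small for a check of single outlying arrays.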

How the results depend on the processing

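Over 21 alternatives, Atf3, Fos, Junb and Jund were called higher at 24 h over sham in all, with Atf3 between 1.68 and 2.79. At the 2-fold minimum of the methods, 4 genes were called at 24 h over sham in place of 7, which follows from the stricter limit. Leaving out each array in turn gave 7 to 7 called genes at 24 h over sham, 0 to 1 at 4 h over sham (Maff, without sham replicate 2) and 6 to 6 at 24 h over 4 h. Fosb fell short of 1.5-fold without background correction (0.38), in the authors' table (0.49), with 75th percentile scaling (0.34) and with offset 50 (0.55), and Jun without background correction (0.56) and with 75th percentile scaling (0.48). Signs turned only in values that were not called: Maff at 24 h over sham was 0.03 in the authors' table and -0.39 to 0.04 with each array left out (0.04 without sham replicate 1), and Atf3 at 4 h over sham was -0.01 to 0.21 (-0.01 without sham replicate 1). The cause was not tested. Deviations of arrays with the same replicate number correlated at -0.022 to 0.0057, beside -0.02 to 0.026 for arrays with different numbers. No pairing by number was seen, which does not settle whether the design held 1. With the replicate block 7, 0 and 6 genes were called, as without it.

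Counts of called genes in the lists moved more. At 24 h over sham the 2-fold limit left 4 of 7 genes in the ATF4 branch, 4 of 8 early genes and 3 of 9 AP-1 targets, and at 4 h over sham 2 of 6, 1 of 4 and 1 of 3. Early genes called at 4 h numbered 1 in place of 4 without background correction, in the authors' table, with 75th percentile scaling and with offset 50. Partners called at 4 h numbered 2 without 4 h replicate 2 and 1 without sham replicate 1, in place of 0. The single call among MAP kinases ranged from 0 to 1 at 24 h over sham and at 4 h over sham (0 at both without background correction, in the authors' table, with 75th percentile scaling, with offset 50 and at the 2-fold limit, and at 24 h also without 24 h replicate 2 or sham replicate 3), and from 0 to 2 at 24 h over 4 h (2 without 24 h replicate 1 or 4 h replicate 1 or 2). That of the SRF group ranged from 0 to 2 at 24 h (2 without sham replicate 1) and from 0 to 1 at 4 h. It was 0 at both times without background correction, in the authors' table and at the 2-fold limit, at 24 h also with BeadChip as a block or without 24 h replicate 3, and at 4 h also with 75th percentile scaling, offset 50, the mean over probes or without 4 h replicate 1. At 24 h over 4 h, partners ranged from 2 to 4, the ATF4 branch from 1 to 3 and AP-1 targets from 4 to 10.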
